A study of Homo sapiens with 6 samples.

Results

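Genes of cholesterol and fatty acid synthesis, most of them targets of the sterol regulatory element binding proteins (SREBPs), were followed together with their regulators in Hep3B cells, a human hepatocellular carcinoma line. The members were 34 genes chosen by symbol, and each matched 1 gene of the 27009 genes in the deposited table. They fall into 18 genes of the sterol arm, 7 regulators and 9 genes of the lipogenic arm. The series compares 2 groups of 3 libraries. In both groups endogenous PD-L1 (gene CD274) was knocked out. The vector group carried the empty lentiviral vector, and the nPD-L1 group carried a PD-L1 whose LCL residues had been changed to ACA, delivered in a lentiviral vector with a CMV promoter and puromycin resistance. Whether a line was 1 clone, and whether libraries came from separate cultures, is not given in the sources used here, so that the p-values measure the spread between these libraries only.

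SREBPs are made as membrane proteins of the endoplasmic reticulum. When sterols run low, SCAP escorts them to the Golgi, where proteases release the part that enters the nucleus, and when sterols are plentiful the INSIG proteins hold SCAP back. The product of SREBF2 acts mainly on cholesterol synthesis and the products of SREBF1 mainly on fatty acid synthesis, and liver cells use both arms heavily.

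The unit throughout is the scaled read, which is the reads counted on a gene divided by a size factor of the library. The 4 libraries in which whole reads were recovered held 17427519 to 22253295 reads on genes, and the sums of scaled reads in the 6 libraries ran from 18082164 to 19682128. CD274 had 28.3, 38.4 and 47.8 scaled reads in vector, beside 16.8, 19.2 and 30.9 in nPD-L1. CD274, of which the nPD-L1 group carried a delivered copy, was thus read at a lower, not a higher, level there. The groups overlapped, and the log2 fold change of −0.76 did not pass the test (limma, adjusted p = 0.338). For this reason the groups are called by their labels. The count of a gene does not tell transcripts of the knocked-out gene from those of the delivered copy. The study's paper describes PD-L1 protein as re-expressed in such Hep3B cells, and protein is not measured by these reads. Of the liver markers, ALB and AHSG lay between 0 and 3.39 scaled reads in every library, while FGB lay between 962 and 1540 and the epithelial keratin KRT8 between 31077 and 39522. The leukocyte, endothelial and fibroblast markers PTPRC, PECAM1 and DCN lay between 0 and 5.04. Vector replicate 2 stood apart from the other vector libraries in the member genes, as described after the promoters.

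Promoters were read from RefSeq on GRCh38.p14 in a window of 250 bases before to 50 after each start site. Of the 34 members, 30 had 43 promoters in that set. The core letters of the sterol regulatory element, TCACNCCAC on either strand, stood in 1 of the 43 member promoters, that of SREBF2, and in 1.13% of all 35116 promoters. The letters CCAAT, the site of the SREBP partner NF-Y, stood in 26 of 43 member promoters (60.5%) and in 34.6% of all, and the GC box GGGCGG, which Sp1 binds, in 38 of 43 (88.4%) and in 45% of all. CCAAT was present for 13 of the 15 sterol genes with a promoter and for 5 of the 8 lipogenic genes. The E-box CACGTG, another sequence that SREBP-1 can bind, stood in 5 of 43 (11.6%, against 7.26% of all). All motifs were sought on both strands. A match of letters is a description and not evidence of binding, and a missing match says only that these letters are not in the window.

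The stretches below show the part of each window that lies before the first exon base of a coding gene in it, 5′ to 3′, with all these motifs in capitals. SREBF2 (chr22:41832855-41833078, plus strand) is shown because it alone carried the core element. INSIG1 (chr7:155297628-155297775, plus strand) and SCD (chr10:100346983-100347123, plus strand) are shown as the members of the regulators and of the lipogenic arm that differed most between libraries of 1 group. ACLY (chr17:41919023-41919272, minus strand) is shown as the lipogenic gene that differed least, and its stretch lies inside the gene as the table gives it (chr17:41866908-41930542), between annotated exons.
SREBF2: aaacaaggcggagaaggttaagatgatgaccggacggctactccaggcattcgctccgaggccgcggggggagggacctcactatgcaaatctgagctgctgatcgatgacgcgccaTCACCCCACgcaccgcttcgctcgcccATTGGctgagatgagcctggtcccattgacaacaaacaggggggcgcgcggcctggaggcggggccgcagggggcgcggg
INSIG1: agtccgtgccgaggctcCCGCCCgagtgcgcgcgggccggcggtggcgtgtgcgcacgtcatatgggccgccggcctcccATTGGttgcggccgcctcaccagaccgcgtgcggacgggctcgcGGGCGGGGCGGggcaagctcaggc
SCD: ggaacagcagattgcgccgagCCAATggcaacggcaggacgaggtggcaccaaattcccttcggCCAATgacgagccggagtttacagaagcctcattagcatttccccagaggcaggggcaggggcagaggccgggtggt
ACLY: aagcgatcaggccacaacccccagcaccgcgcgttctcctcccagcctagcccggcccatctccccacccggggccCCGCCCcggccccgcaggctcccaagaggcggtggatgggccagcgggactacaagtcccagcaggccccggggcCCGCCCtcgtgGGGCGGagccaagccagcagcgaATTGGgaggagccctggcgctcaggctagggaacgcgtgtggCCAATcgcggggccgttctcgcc
Within these shortened stretches, SREBF2 held the element and 1 CCAAT box on the reverse strand. INSIG1 held 1 CCAAT and 3 GC boxes and SCD 2 CCAAT boxes, and ACLY, whose level hardly varied inside a group, also held 2 CCAAT boxes, with 3 GC boxes. The stretches differ in length, with 148 bases for INSIG1, 141 for SCD and 250 for ACLY. Their motif counts are therefore not comparable and say nothing about how a gene varied. The whole windows of SREBF2 and SCD also held GC boxes, and that of INSIG1 an E-box.

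The members rose and fell together from library to library within each group. Vector replicate 2 was the highest of the vector libraries in 33 of 34 members and vector replicate 3 the lowest in 29. Likewise nPD-L1 replicate 2 was the highest of its group in 32 members and nPD-L1 replicate 1 the lowest in 33. All these places held at once in 28 of 34 members, namely 17 of 18 sterol genes, 4 of 7 regulators and 7 of 9 lipogenic genes. Among all 15076 genes tested the same order held in 938, or 6.22%. The order was taken from the members after their values were seen, so these counts are a description and not a test. The members outside it were CYP51A1, SCAP, INSIG2, STARD4, ACLY and ACSS2.

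The steps between libraries of 1 group were large. SCD, the desaturase that makes oleate, had 17319, 43052 and 11598 scaled reads in vector replicates 1, 2 and 3 and 18822, 59012 and 47549 in nPD-L1 replicates 1, 2 and 3. Vector replicate 2 thus held 3.71 times the SCD of vector replicate 3, and nPD-L1 replicate 2 held 3.14 times that of nPD-L1 replicate 1. The corresponding vector ratios were 3.68 for INSIG1, 3.64 for LSS, which closes the sterol ring, and 3.59 for the desaturase FADS2. The median member differed by 1.14 on the log2 scale between vector replicates 2 and 3 and by 0.72 between nPD-L1 replicates 2 and 1, where the medians of all tested genes were −0.01 and −0.01. The first difference was over 2-fold for 18 of 34 members and for 3.67% of all tested genes, and the second for 9 of 34 members and 2.56%. These pairs of libraries were picked as the extremes of the members, after the values were seen.

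**Figure D1:**
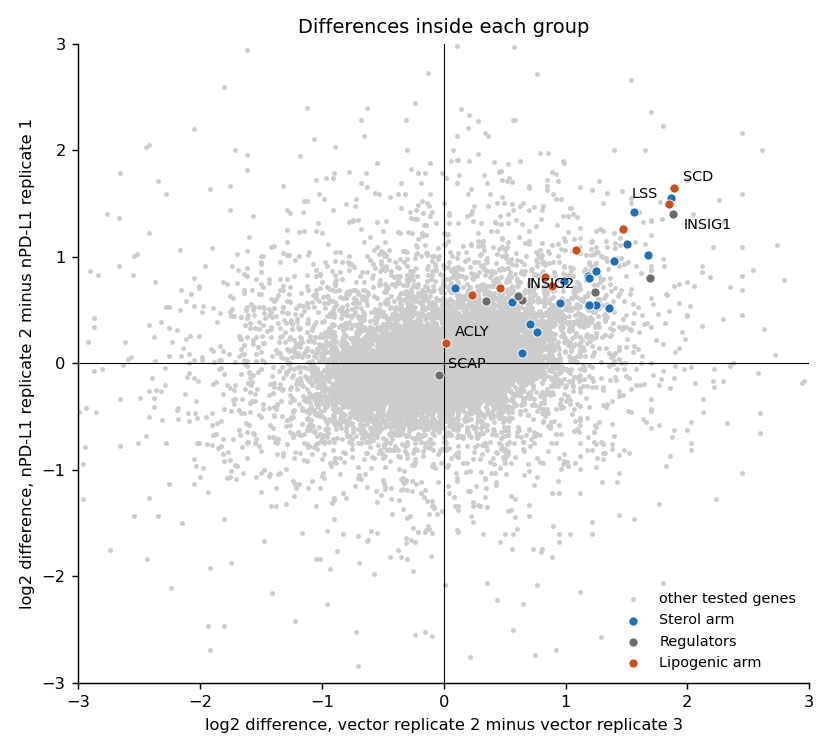
Log2 difference between vector replicates 2 and 3 (x axis) against that between nPD-L1 replicates 2 and 1 (y axis), with 1 point for each of the 15076 tested genes (48 lie outside the axes) and the members in colour by arm. Of the members 33 of 34 lie above 0 on each axis, SCD, LSS and INSIG1 are at the upper right, and ACLY and SCAP lie near the origin.

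The within-group standard deviation of log2(scaled reads + 1) had a median of 0.48 over the members. It was 0.16 over the 10725 tested genes whose mean reached 100 scaled reads, as it did for all 34 members, and 27 of 34 members lay above the 90th percentile of these genes. SCD was the most variable member, with an SD of 0.92, followed by LSS with 0.89 and FADS2 with 0.86. At the other end stood SCAP, with an SD of 0.06, and ACLY, with an SD of 0.07, at the 6.37th and 8.3rd percentiles. The members made up 0.482%, 0.838% and 0.388% of all scaled reads in vector and 0.512%, 1.05% and 0.886% in nPD-L1. Where depth was recovered, vector replicates 2 and 3 held 17427519 and 17584285 reads on genes and nPD-L1 replicates 1 and 3 held 22253295 and 18744564. The vector depths were thus nearly equal, while in nPD-L1 the library with the higher member levels was the shallower. The depth of vector replicate 1 and of nPD-L1 replicate 2 was not recovered. The mitochondrial share was 5.85%, 4.98% and 5.53% of scaled reads in vector and 4.59%, 5.11% and 5.79% in nPD-L1. The part of depth and of the mitochondrial share in this order was not tested.

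**Figure D2:**
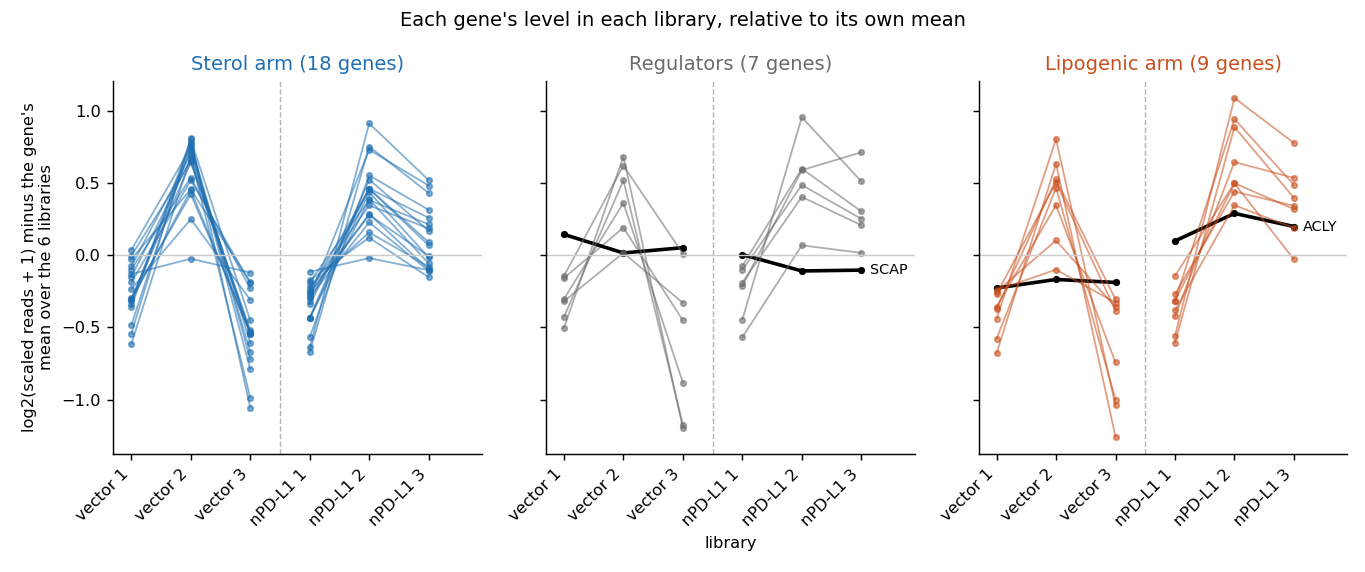
Log2(scaled reads + 1) of each member in each of the 6 libraries minus that gene's mean over the libraries, in 1 panel per arm. Lines only join the points of 1 gene within a group, and ACLY and SCAP, in black, stay nearly level within each group while most members peak in vector replicate 2 and in nPD-L1 replicate 2.

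The groups were compared as labelled, nPD-L1 against vector. All 34 members passed the filter on low values, and 0 of 34 passed the test in either direction (limma, adjusted p under 0.05 over all genes; 1 without vector replicate 2 and 1 without nPD-L1 replicate 1), where 4.96% of all tested genes passed it, 4.04% higher and 0.922% lower in nPD-L1. At an unadjusted p under 0.05, 3 of 34 members were higher (ACLY, ACACA and MYLIP) and 0 lower, beside 14.2% of all tested genes in either direction, 9.53% higher and 4.71% lower. The groups did not overlap in 2 of 34 members, ACLY and SCAP, and in 20.6% of all tested genes. The edgeR and DESeq2 tests, run on 4 libraries only, called 0 members in either direction, at an adjusted or an unadjusted p under 0.05. Their vector side kept replicate 2, the highest in 33 of 34 members, beside replicate 3, the lowest in 29. Their nPD-L1 side lacked its replicate 2, the highest of that group in 32 members. With so wide a vector spread a call was unlikely for most members, so these 0 calls add little to the limma result. The log2 fold change, nPD-L1 minus vector, was above 0 in 25 of 34 members, with a median of 0.23, and above 0 in 46.7% of all tested genes, with a median of −0.02. The 95% interval included 0 in 31 of 34 members. The median member's interval reached 0.60 to either side of its fold change on the log2 scale.

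**Figure D3:**
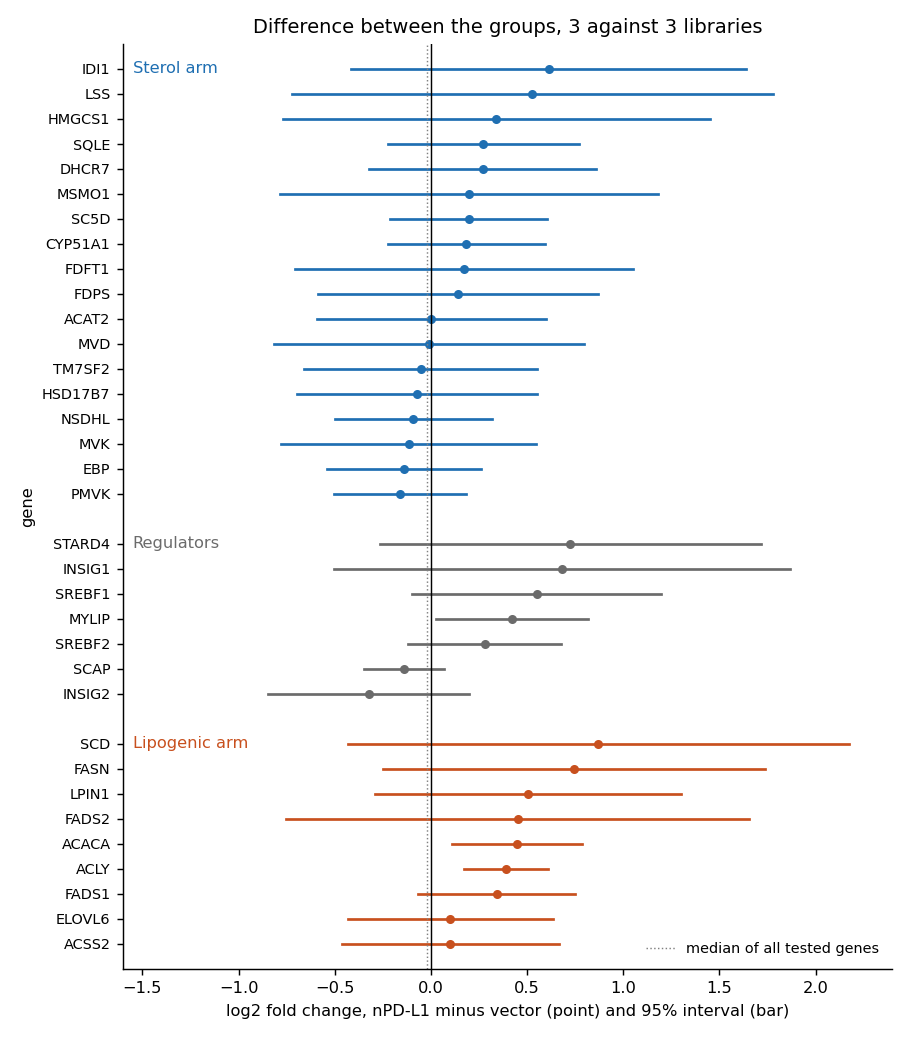
Log2 fold change of each member, nPD-L1 minus vector, with its 95% interval from limma, n = 3 libraries a group, grouped by arm and ordered by size. In this fit on 6 libraries every lipogenic gene lies above 0 (3 of them turn below 0 on 4 libraries, and ELOVL6 and ACSS2 also without some single libraries), the sterol genes lie on both sides of it, and the intervals of ACLY and ACACA, both lipogenic, and of MYLIP alone leave out 0.

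Among the regulators, the transcription factor gene SREBF1 (chr17:17810399-17837002) had 7066, 11212 and 4732 scaled reads in vector and 8279, 13217 and 10767 in nPD-L1. Its highest vector library exceeded 2 of the 3 nPD-L1 libraries, and the log2 fold change of 0.55 (SE 0.29) did not pass the test (limma, adjusted p = 0.456). SREBF2 (chr22:41833079-41907308) had 2889, 3682 and 2357 scaled reads against 2828, 4266 and 3725, again with overlap (log2 fold change 0.28, SE 0.18, limma, adjusted p = 0.561). The log2 ratio of SREBF1 to SREBF2 within a library, not corrected for length, was 1.29, 1.61 and 1.01 in vector and 1.55, 1.63 and 1.53 in nPD-L1, and these values overlapped.

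SCAP, the escort, was the steadiest member. It had 1787, 1634 and 1676 scaled reads in vector and 1621, 1499 and 1505 in nPD-L1. Every nPD-L1 library lay below every vector library, which held for 8.54% of all tested genes, and the log2 fold change of −0.14 (SE 0.09) did not pass the test (limma, adjusted p = 0.582).

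INSIG1, which holds SCAP back and is itself an SREBP target, had 2009, 4577 and 1244 scaled reads in vector and 2093, 5530 and 4065 in nPD-L1. The groups overlapped, and the log2 fold change of 0.68 (95% interval −0.51 to 1.87) had an SE of 0.51 (limma, adjusted p = 0.633). INSIG2, its relative, stood at 46.3 scaled reads per kilobase beside 891 for INSIG1 (means of 6 libraries), with 160, 273 and 179 scaled reads in vector and 119, 186 and 179 in nPD-L1 (log2 fold change −0.32, SE 0.24, limma, adjusted p = 0.615). The log2 difference between INSIG1 and INSIG2 within a library was 3.64, 4.06 and 2.79 in vector and 4.12, 4.89 and 4.49 in nPD-L1, a description of a pair chosen after their values were seen. These values did not overlap.

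STARD4, a carrier of cholesterol between membranes, had 653, 1259 and 389 scaled reads in vector and 758, 1323 and 1441 in nPD-L1 (log2 fold change 0.72, SE 0.42, limma, adjusted p = 0.535). MYLIP, an E3 ligase that degrades lipoprotein receptors and is a target of the liver X receptors rather than of SREBPs, had 196, 247 and 194 scaled reads against 228, 343 and 291. Only its highest vector library reached into the nPD-L1 range (log2 fold change 0.42, SE 0.18, limma, adjusted p = 0.307).

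The sterol arm had 11 log2 fold changes above 0 and 7 below, from −0.16 (PMVK) to 0.61 (IDI1), with a median of 0.15. In all 18 genes the groups overlapped and the 95% interval included 0. The sign of the median hung on single libraries: without vector replicate 2 it was 0.38, without vector replicate 3 it was −0.12, without nPD-L1 replicate 1 it was 0.35, without nPD-L1 replicate 2 it was −0.05 and without vector replicate 1 it was 0.04.

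At the entry of the arm, HMGCS1, the synthase that makes HMG-CoA, had 2403, 5723 and 1943 scaled reads in vector and 2109, 5664 and 4533 in nPD-L1 (log2 fold change 0.34, SE 0.48, limma, adjusted p = 0.802). Of the mevalonate steps that follow, the kinases MVK and PMVK and the decarboxylase MVD had log2 fold changes of −0.11, −0.16 and −0.01. IDI1, which isomerises isopentenyl diphosphate, had 1922, 4733 and 1484 scaled reads in vector and 2405, 4885 and 4112 in nPD-L1 (log2 fold change 0.61, SE 0.44, limma, adjusted p = 0.620). The highest libraries of the groups lay close together, and the 2 lower vector libraries lay below every nPD-L1 library.

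FDFT1, squalene synthase, had 3017, 6207 and 2356 in vector and 2772, 5390 and 4216 in nPD-L1 (log2 fold change 0.17, SE 0.38, limma, adjusted p = 0.877). For this gene the highest value of all stood in a vector library. LSS had 947, 2420 and 664 scaled reads in vector and 887, 2601 and 1980 in nPD-L1 (log2 fold change 0.53, SE 0.54, limma, adjusted p = 0.727). 

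SQLE, the epoxidase of squalene, had 2847, 4683.5 and 2413 scaled reads in vector and 3074, 4556 and 4054 in nPD-L1 (log2 fold change 0.27, SE 0.22, limma, adjusted p = 0.657). EBP, a sterol isomerase, had 2473, 3847 and 2258 in vector and 2346, 2882 and 2383 in nPD-L1 (log2 fold change −0.14, SE 0.18, limma, adjusted p = 0.782). In EBP the highest vector library exceeded every nPD-L1 library, and the other libraries lay close together. The remaining sterol genes, which are FDPS, CYP51A1, TM7SF2, MSMO1, NSDHL, HSD17B7, SC5D, DHCR7 and ACAT2, had log2 fold changes from −0.09 (NSDHL) to 0.27 (DHCR7), and those of ACAT2 and MVD lay so close to 0 that upper-quartile or TMM scaling turned their sign.

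Counts of some sterol genes are uncertain. Of the 34 members, 5 share over 10% of their exon bases with another annotated gene in GENCODE release 29, whose gene starts and ends equal those of the table for all 34. CYP51A1, the demethylase of lanosterol, shares 79.4% with a coding gene on the same strand, and ACAT2, FDPS, HMGCS1 and IDI1 share 14.8% to 33.9% with a gene on the opposite strand. The counting is not stated to use strand.

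The lipogenic arm had 9 of 9 log2 fold changes above 0, from 0.10 (ACSS2 and ELOVL6) to 0.87 (SCD), with a median of 0.45. The groups overlapped in 8 of the 9 genes. On the 4 libraries with recovered reads ELOVL6 and ACSS2 lay below 0 with limma, and FADS2 too with edgeR and DESeq2. Leaving out vector replicate 1, vector replicate 3 or nPD-L1 replicate 2 alone also put both ELOVL6 and ACSS2 below 0. Leaving out single libraries kept the median between 0.26 (without vector replicate 3) and 0.63 (without nPD-L1 replicate 1).

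ACLY, which makes cytosolic acetyl-CoA from citrate, was the member with the smallest adjusted p, and it is singled out for that reason after its values were seen. It had 8354, 8706 and 8582 scaled reads in vector and 10473, 11958 and 11226 in nPD-L1. Every nPD-L1 library lay above every vector library, which held for 12% of all tested genes. The log2 fold change was 0.39 (SE 0.10, 95% interval 0.17 to 0.61), or 1.31-fold, at an adjusted p of 0.0516 (limma), just outside the threshold. It passed under 5 alternatives to the processing and without vector replicate 2 (limma, adjusted p = 0.00894). On the 4 libraries with recovered reads the adjusted p of ACLY rose as far as 0.935.

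ACACA, the carboxylase that makes malonyl-CoA, had 3205, 3537 and 3019 scaled reads in vector and 3431, 5357 and 4729 in nPD-L1. Only nPD-L1 replicate 1 fell within the vector range (log2 fold change 0.45, SE 0.15, limma, adjusted p = 0.168), and without it the adjusted p was 0.0317. FASN, the fatty acid synthase, had 12462, 25755 and 9312 scaled reads in vector and 14964, 35805 and 26094 in nPD-L1. Its log2 fold change of 0.74 (SE 0.43) did not pass the test (limma, adjusted p = 0.522), and the vector and nPD-L1 libraries overlapped. SCD, with the values given above, had a log2 fold change of 0.87 (95% interval −0.43 to 2.17, SE 0.56, limma, adjusted p = 0.575), which was 1.40 without vector replicate 2 and 0.46 without vector replicate 3.

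LPIN1, a phosphatidate phosphatase on the way to triglyceride, had 1088, 1772 and 832 scaled reads in vector and 1039, 2181 and 2020 in nPD-L1 (log2 fold change 0.50, SE 0.34, limma, adjusted p = 0.599). The first nPD-L1 library lay inside the vector range and the other two above it. The desaturases FADS1 and FADS2 had log2 fold changes of 0.34 and 0.45, and the elongase ELOVL6 and the acetyl-CoA synthetase ACSS2 0.10 each.

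Between genes, levels were compared per kilobase of the gene length in the table, as the mean of the 6 libraries. SCD was the highest member with 6134 scaled reads per kilobase, followed by FASN with 2214, ACLY with 1894, SREBF1 with 1147 and EBP with 1120. The lowest were CYP51A1 with 58.8 and INSIG2 with 46.3. The level of CYP51A1 is uncertain, as 79.4% of its exon bases are shared with a coding gene on the same strand. SCD thus exceeded FASN in level per kilobase, but its scaled reads in vector ran from 11598 to 43052, whereas ACLY stayed between 8354 and 8706.

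The contrast of the arms within a library removes the library's scaling. The mean of log2(scaled reads + 1) over the lipogenic genes minus that over the sterol genes was 1.43, 1.32 and 1.47 in vector and 1.58, 1.78 and 1.81 in nPD-L1. It was 1.41 ± 0.08 in vector and 1.72 ± 0.12 in nPD-L1 (mean ± SD, n = 3), a difference of 0.31 with no overlap between groups. Neither arm by itself separated the groups. The sterol mean was 10.23 ± 0.58 in vector and 10.36 ± 0.38 in nPD-L1, and the lipogenic mean 11.64 ± 0.50 and 12.08 ± 0.49 (n = 3). The members were chosen with results of these data known, so the contrast is a description, with no test.

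The summed scaled reads also separated the groups, though the libraries of a group stood in another order. The sterol genes summed to 24844, 47707 and 20557 in vector and 24077, 43171 and 35412 in nPD-L1, and the lipogenic genes to 49669, 94404 and 39658 and to 55685, 127462 and 102796. The lipogenic sum was 1.999, 1.98 and 1.93 times the sterol sum in vector and 2.31, 2.95 and 2.90 times in nPD-L1. SCD and FASN made up 52.7% to 74.4% of the lipogenic sum. Without them the ratio was 0.800, 0.537 and 0.912 in vector and 0.910, 0.756 and 0.823 in nPD-L1, and the groups overlapped. The contrast of the means was not computed without SCD and FASN, so its separation of the groups may also rest on them. With the median over the genes of an arm in place of the mean, the difference between groups was 0.26 and the groups overlapped. Leaving out each library in turn kept the difference of the means between 0.27 and 0.38.

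Beside the sterol gene HMGCS1, 2 of the 9 lipogenic genes, SCD and FASN, separated the groups and 7 did not. The share of all tested genes that separate beside HMGCS1 was not computed, so this count has no background. By level alone the groups did not overlap in 20.6% of all tested genes. HMGCS1 itself varied widely within groups (SD 0.79), so a difference from it depends on how far a gene followed its swings. The log2 difference of SCD minus HMGCS1 was 2.85, 2.91 and 2.58 in vector and 3.16, 3.38 and 3.39 in nPD-L1. That of FASN minus HMGCS1 was 2.37, 2.17 and 2.26 in vector and 2.83, 2.66 and 2.52 in nPD-L1. In both pairs, which were chosen after the values were seen, the groups did not overlap, although each gene alone overlapped. ACLY minus HMGCS1 overlapped, with 1.80, 0.61 and 2.14 in vector and 2.31, 1.08 and 1.31 in nPD-L1. The group means of the difference were higher in nPD-L1 for 7 genes and lower for ELOVL6 and ACSS2 (−0.24 each).

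**Figure D4:**
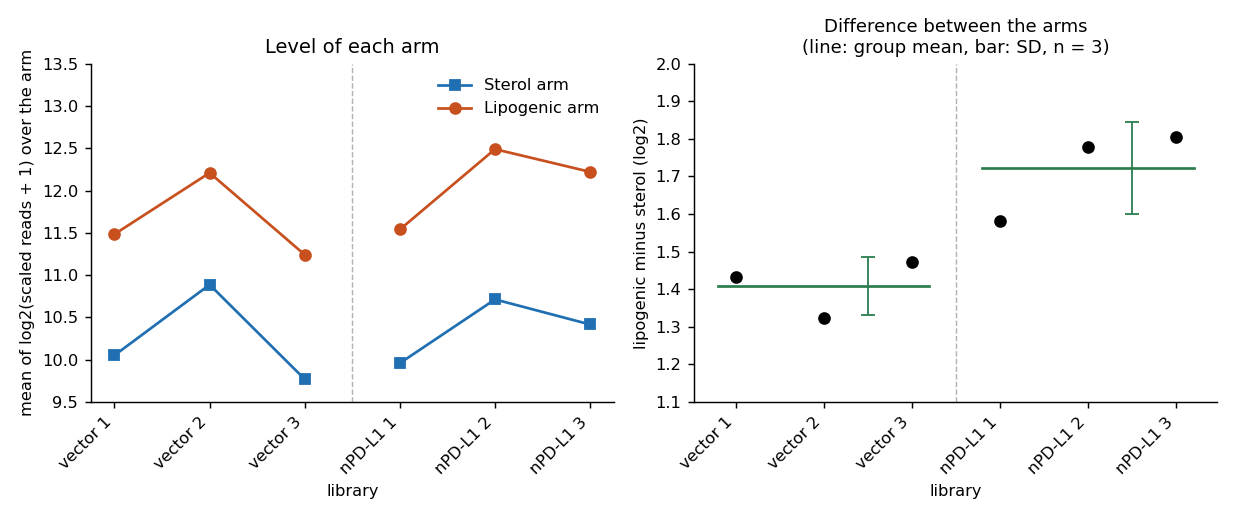
Left, the mean of log2(scaled reads + 1) over the 18 sterol genes and the 9 lipogenic genes in each library, with lines joining libraries of 1 group. Right, lipogenic minus sterol in each library on an axis that does not start at 0, with the group mean as a line and the SD as a bar (n = 3), where the nPD-L1 libraries, at 1.58 to 1.81, lie above the vector libraries, at 1.32 to 1.47.

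Of 50 other genes of lipid metabolism, 49 were tested, and 4 were higher in nPD-L1 and 0 lower (limma), beside 4.04% and 0.922% of all tested genes, with a median log2 fold change of 0.04. They cover SREBP activation, sterol-regulated degradation, sterol transport, the isoprenoid branch, and elongation with glycerolipid synthesis. The library order of the members held in 9 of these 49 genes, among them ME1, which supplies NADPH and had 3893, 6747 and 3420 scaled reads in vector and 4067, 6531 and 5632 in nPD-L1.

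Among the activators 1 of 3 genes rose. C12orf49, also named SPRING1, a Golgi protein needed for SREBP processing, had 1100.2, 1150 and 1102 scaled reads in vector and 1391, 1775 and 1459 in nPD-L1. The groups did not overlap, and the log2 fold change was 0.46 (SE 0.11, limma, adjusted p = 0.0437). This call was lost without any 1 library other than vector replicate 2, with an adjusted p of up to 0.251 (limma). MBTPS1 and MBTPS2, the proteases that cut SREBPs, had log2 fold changes of 0.18 and 0.07 and did not pass the test.

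Among the 12 genes of sterol transport 2 rose. GRAMD1A, which carries cholesterol from the plasma membrane to the endoplasmic reticulum, had 2668, 3196 and 2093 scaled reads in vector and 5158, 5738 and 4963 in nPD-L1, or 2.02-fold (log2 fold change 1.01, SE 0.14, limma, adjusted p = 0.00186). ABCG1, a sterol exporter and a target of the liver X receptors, had 130, 251 and 92.5 scaled reads in vector and 369, 571 and 570 in nPD-L1, or 3.40-fold (log2 fold change 1.76, SE 0.32, limma, adjusted p = 0.00753). In both genes every nPD-L1 library lay above every vector library. The call of ABCG1 was lost without nPD-L1 replicate 3 (limma, adjusted p = 0.0631).

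Of 22 tested genes of elongation, NADPH supply and glycerolipid synthesis 1 rose. HACD2, a dehydratase of fatty acid elongation, had 2536, 2666 and 2597 scaled reads in vector and 3193, 3521 and 3545 in nPD-L1, with no overlap (log2 fold change 0.39, SE 0.09, limma, adjusted p = 0.0355). Like C12orf49, it kept its call without vector replicate 2 only, and without the other libraries its adjusted p reached 0.213 (limma). None of the 6 genes of sterol-regulated degradation and of the 6 of the isoprenoid branch passed the test.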

How the data were processed

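RNA-seq libraries were made from Hep3B cells with the NEBNext Ultra kit, 3 from the vector group and 3 from the nPD-L1 group as the sample titles give them. The submitters' processing notes name CASAVA, HISAT2 2.0.5 and hg38. The counting tool is not given in the sources used here. The deposited values are a signal, reads per gene divided by a size factor of the library, as every value above 0 was a whole multiple (tolerance 0.01 reads) of 1 step per library. Whole reads were recovered only where the step differed from 1 by at least 0.005 on the log10 scale, which held in 4 libraries. In vector replicate 1 and nPD-L1 replicate 2 the step was 1.01, inside this limit. Their values were also whole multiples of their step, so the limit, not the values, left them out. Intervals of counting error are not given, since reads are not independent molecules. The table also holds the authors' group means, log2 fold change and p-values, which were not used. The number of per-sample columns left unused was 0.

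Genes with at least 10 scaled reads in at least 3 libraries were tested with limma 3.58.1 (trend, robust) in R 4.3.3 on log2(scaled reads + 1), with Benjamini-Hochberg adjustment over all 15076 genes. Fold changes are on that scale, which understates changes of low genes. edgeR 4.0.16 and DESeq2 1.42.0 were run on the recovered reads of 4 libraries. Each test was tested on simulated data. Alternatives changed scaling, pseudocount, filter, moderation, gene set, replicate block, threshold and libraries. Members and lists were chosen with earlier results of these data known. Values of every library were given for the regulators, the 3 sterol and 3 lipogenic genes with the largest fold changes, the 2 most abundant of each arm by scaled reads or per kilobase, called genes, and genes singled out as said. AFP, COL1A2 and THRSP were not analysed here.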

Additional observations from a re-analysis of the deposited data

How the results depend on the processing

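No member was called lower under any alternative, and 0 members were called higher under upper-quartile scaling, pseudocounts of 0.1 and 10, a minimum in all 6 libraries, a 2-fold limit, and limma, edgeR and DESeq2 on 4 libraries. Those 4 libraries held the vector extremes of most members, so 0 calls there tell little. With TMM factors, no filter, moderation that was not robust, protein-coding genes only or an adjusted p under 0.10, 1 member was called higher, the lipogenic gene ACLY. An unadjusted p under 0.05 called 3, of which 2 lipogenic and 1 regulator. Without single libraries 0 to 1 members were called, ACLY without vector replicate 2 and ACACA without nPD-L1 replicate 1. Over all tested genes, 609 higher and 139 lower calls became 1436 and 710 at an unadjusted p, 306 and 68 with a 2-fold limit, 241 and 52 with limma on 4 libraries, 249 and 52 with edgeR (914 and 290 unadjusted, added after seeing the data), 331 and 85 with DESeq2 (789 and 220 unadjusted, also added), and 350 to 793 and 77 to 244 without single libraries.

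With the replicate number as a block, 2 members, both lipogenic (ACLY, adjusted p = 0.0199, and ACACA, 0.0185), were called higher, and 927 genes higher and 258 lower in all. Deviations of same-numbered libraries correlated at −0.01, 0.23 and 0.13 across genes, and those of differently numbered libraries at −0.22 to 0.08. The titles do not say that the numbers pair the libraries, and these correlations do not settle it. The block was therefore kept as an alternative only.

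The difference of the arm medians was 0.13 to 0.37 without single libraries, and on 4 libraries 0.42 with limma, 0.51 with edgeR and 0.51 with DESeq2. The arm contrast per library was 0.46 with summed values. Of 612 values of single members under alternatives, 545 kept their direction and side of the threshold, 8 became called and 59 changed sign without a call, and the cause was not tested. Log2 fold changes turned negative with limma on 4 libraries for HMGCS1 (−0.11), FDPS (−0.17), FDFT1 (−0.16), CYP51A1 (−0.018), MSMO1 (−0.16), ACAT2 (−0.21), ELOVL6 (−0.16) and ACSS2 (−0.28). The edgeR and DESeq2 values were −0.20 and −0.20 for HMGCS1, −0.27 and −0.28 for FDPS, −0.28 and −0.29 for FDFT1, −0.095 and −0.10 for LSS, −0.0036 and −0.0097 for CYP51A1, −0.27 and −0.27 for MSMO1, −0.029 and −0.036 for DHCR7, −0.32 and −0.32 for ACAT2, −0.19 and −0.19 for ELOVL6, −0.17 and −0.17 for FADS2 and −0.33 and −0.33 for ACSS2, with −0.0039 for SC5D by DESeq2. Upper-quartile scaling gave ACAT2 −0.048 and TMM gave MVD 0.0020. Without single libraries the sign crossed 0 for ACAT2 (−0.26 to 0.34), ACSS2 (−0.12 to 0.39), EBP (−0.29 to 0.10), ELOVL6 (−0.066 to 0.38), FDFT1 (−0.12 to 0.58), FDPS (−0.10 to 0.49), HSD17B7 (−0.36 to 0.23), MSMO1 (−0.11 to 0.64), MVD (−0.24 to 0.39), MVK (−0.45 to 0.23), NSDHL (−0.21 to 0.14), PMVK (−0.29 to 0.028) and TM7SF2 (−0.34 to 0.29). Of the other lipid genes called, C12orf49 and HACD2 lost the call under 9 of 18 alternatives each, ABCG1 under 4 and GRAMD1A under 1.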
